A study of Rattus norvegicus with 4 samples.

Results

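The genes described are 7 members of the cadherin family (Cdh2, Cdh3, Cdh4, Cdh6, Cdh11, Cdh13 and Cdh20) and 2 immunoglobulin-type adhesion molecules first described in the nervous system (Cntn2 and Ncam1), 9 of the 23608 gene entries in the deposited table. They were chosen by gene symbol, and the set was built around Cdh20 and Cntn2 because these stood among the genes most raised in the stiff library. The values of stiff against soft matrix are therefore a description here and carry no test. Of the 9 genes, 8 reached the expression minimum of 1 CPM (a gene's count scaled to the library's total, adjusted by the trimmed mean of M-values, TMM) in at least 1 library. Cdh4 had 0 counts in all 4 libraries, which allows up to 0.103 CPM in the stiff library and less in the others, taking a floor of 3 counts.

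The cells were wild-type primary vascular cells of rat subcutaneous soft connective tissue, grown as microvessels on soft or stiff extracellular matrix, without or with A83-01, a small molecule that blocks TGF-beta and activin signalling at the ALK5 class of receptors. Each of the 4 combinations (soft, soft with A83-01, stiff, stiff with A83-01) is represented by 1 library. No replicate stands behind a difference between a pair of libraries, and the intervals below cover counting error only. Values listed for 4 libraries follow the order soft, soft plus A83-01, stiff, stiff plus A83-01. The labels give no strain, sex, age, stiffness value, inhibitor dose or time, and do not say whether the libraries share animals or a preparation. They name the stiff libraries in another form than the soft ones, so an effect of matrix and one of separate handling cannot be told apart.

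Classical cadherins are calcium-dependent receptors that bind the same or a related cadherin on the neighbouring cell and hold on to the actin cytoskeleton through catenins. Cdh2, Cdh3 and Cdh4 (N-, P- and R-cadherin) belong to type I, and Cdh6, Cdh11 and Cdh20 to type II. Cdh13 (T-cadherin) has no transmembrane or cytoplasmic part, sits in the membrane by a lipid anchor and binds adiponectin. In small vessels N-cadherin joins endothelial cells to pericytes, VE-cadherin (Cdh5) joins endothelial cells to each other, and Cdh11 is known from fibroblasts and myofibroblasts. Cntn2 is a lipid-anchored contactin of axons and myelinated fibres, and Ncam1 is the neural cell adhesion molecule, which is also made by some activated stromal cells.

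RefSeq's table of promoter windows (build GRCr8) held 3 of the 9 genes, Cdh20, Cntn2 and Cdh6. Their sequences are shown because the other members had no entry there. These 3 genes had their higher levels in both stiff libraries. Printed are the bases before the annotated start, 5′ to 3′ on the gene's strand, without bases that fall in the gene's annotated span. The Cdh20 window lies inside the span of longer models of that gene. Capitals mark matches to the motifs searched. The GC content is 42.4% for Cdh20, 63.8% for Cntn2 and 55.7% for Cdh6.
Cdh20 (chr13:21515017-21515266, plus strand): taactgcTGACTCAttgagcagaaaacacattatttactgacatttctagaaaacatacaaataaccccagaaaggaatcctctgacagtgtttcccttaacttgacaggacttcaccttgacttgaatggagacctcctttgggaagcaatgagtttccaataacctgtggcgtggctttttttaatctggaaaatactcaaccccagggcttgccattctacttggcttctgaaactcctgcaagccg
Cntn2 (chr13:46528113-46528275, minus strand): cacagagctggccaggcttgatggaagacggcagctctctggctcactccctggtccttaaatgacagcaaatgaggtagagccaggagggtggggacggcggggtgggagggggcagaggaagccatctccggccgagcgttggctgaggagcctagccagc
Cdh6 (chr2:63952310-63952537, minus strand): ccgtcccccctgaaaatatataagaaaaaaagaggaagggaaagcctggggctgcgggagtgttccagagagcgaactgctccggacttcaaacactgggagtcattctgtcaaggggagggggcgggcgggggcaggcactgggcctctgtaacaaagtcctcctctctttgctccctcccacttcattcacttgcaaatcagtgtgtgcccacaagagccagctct
The 250 bases before each start were searched on both strands for GGAATG (bound by TEAD factors), CAGAC (SMAD), TGANTCA (AP-1) and the CArG box (serum response factor). The single match was an AP-1 motif at positions -243 to -237 of the Cdh20 window, counted back from the start. It is palindromic and so matched on both strands, and it overlapped no other motif. Of 33469 promoter windows of this length, 12.1% held the TEAD motif, 42.9% the SMAD motif, 6.34% the AP-1 motif and 1.5% the CArG box. A match describes letters and not a site in use, and the absence of a match says only that these letters are not in these windows.

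Depth ran from 32271844 to 33416200 total counts a library, and TMM factors from 0.881 in stiff to 1.07 in stiff with A83-01. Col1a1, the collagen I chain, took between 1.82% (soft with A83-01) and 6.09% (stiff) of all counts. Scaling by total counts in place of TMM put the median log2 ratio of all 13634 compared genes at −0.23 for stiff against soft and at 0.31 for A83-01 against none on stiff, in place of −0.01 and 0.03. It also moved the share of higher genes among those at least 2-fold apart from 37% to 25% in the former pair and from 63.5% to 80.7% in the latter. No member's ratio changed sign under this or any other scaling tried. Markers of the labelled vascular cells were present: Cdh5 stood at 873, 889, 726 and 1323 CPM, and the pericyte receptor gene Pdgfrb at 1244, 883, 1583 and 1467 CPM. The endothelial marker Cldn5 had 0 counts in 3 of the 4 libraries and 0.93 CPM in soft with A83-01, and Pecam1 was not analysed here.

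Compared per transcript length, in the authors' FPKM, the soft libraries carried chiefly Cdh13, Cdh2 and Cdh11, while the stiff libraries carried more Ncam1 or Cdh13 and less Cdh2, along with transcripts of Cntn2, Cdh20, Cdh3 and Cdh6 that the soft libraries nearly lacked. The 9 genes summed to 89.2 FPKM in soft, 88.3 in soft with A83-01, 147 in stiff and 143 in stiff with A83-01. In soft, the levels ran in the order Cdh13 (38.6 FPKM), Cdh2 (22.9), Cdh11 (17.9) and Ncam1 (9.58), with the other 5 genes below 0.1 FPKM. In stiff, the order was Ncam1 (55.2 FPKM), Cdh13 (45.2), Cdh11 (25.2), Cdh2 (8.93), Cntn2 (7.28), Cdh20 (3.23), Cdh3 (1.25) and Cdh6 (0.341). Without replicates, whether neighbours in these orders differ beyond the spread between libraries cannot be said.

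Cdh13 led in 3 of the 4 libraries, and Ncam1 led in stiff with 37.6% of the summed FPKM. With A83-01 on stiff matrix, Cdh13 held 66.5% and Ncam1 8.92%. On soft matrix Cdh2 held 42.6% with the inhibitor and 25.7% without it, and Cdh11 6.78% and 20.1%. The Cdh11 level divided by the Cdh2 level, both in FPKM, was 0.783 in soft, 0.159 in soft with A83-01, 2.82 in stiff and 0.496 in stiff with A83-01. This quotient was higher in each stiff library than in the soft library of the same treatment, and lower in each A83-01 library than in the untreated library of the same matrix.

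**Figure D1:**
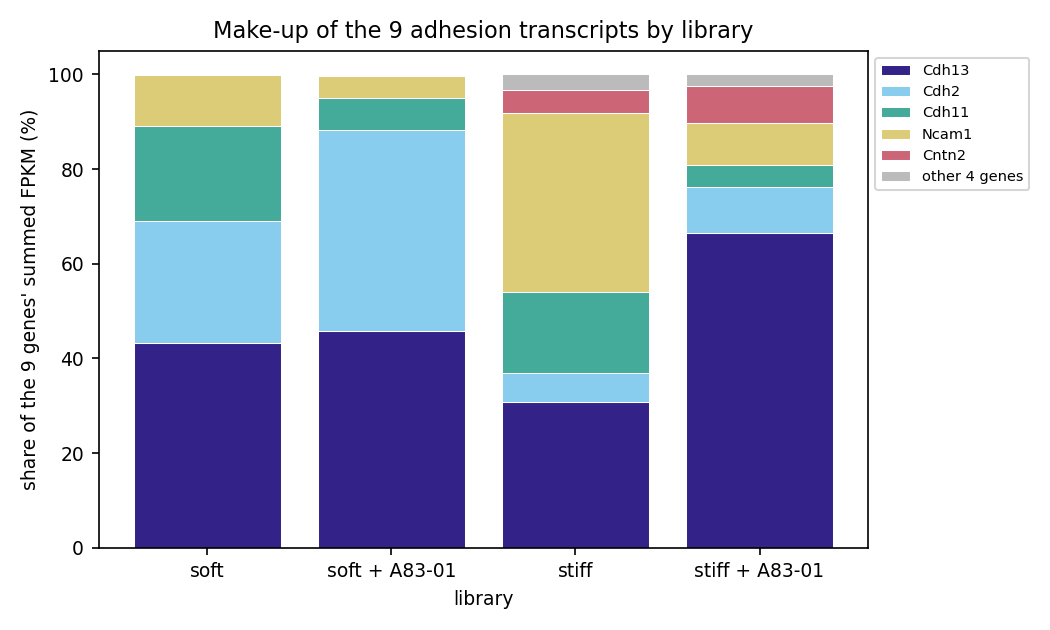
Share of each gene in the summed FPKM of the 9 genes (vertical axis, percent), 1 stacked bar for each library. Cdh13 takes the largest part in 3 libraries and Ncam1 (37.6%) in stiff, and Cdh2 is broadest in soft with A83-01 (42.6%).

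Stiff against soft matrix without inhibitor is the comparison that chose the leading members, so its values are given as a description. Among the 8 genes compared, 5 were at least 2-fold higher in stiff with a counting interval above equality and 1 was at least 2-fold lower, beside 5.29% of all compared genes higher and 9.01% lower. Nothing is read from these counts. Of the 5, Cntn2, Cdh20, Cdh3 and Cdh6 passed the expression minimum only through the stiff libraries. They therefore had to be higher there, though not necessarily by 2-fold. In bulk RNA a lower level can mean fewer cells of a type or less RNA in each cell, and these cannot be told apart.

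Cntn2 had 21, 23, 1519 and 2288 counts, or 0.630, 0.689, 52.0 and 64.1 CPM. Both stiff libraries lay far above both soft ones, and within a matrix the 2 libraries were close. Stiff stood 82.5-fold above soft (95% counting interval 53.8 to 134), the third highest log2 ratio of the 13634 genes compared. With A83-01 in both libraries, the ratio was 93.1-fold (61.9 to 147). Because Cntn2 passed the expression minimum only through the stiff libraries, this ratio too is a description.

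Cdh20, a type II cadherin known from neural crest and brain, had 0, 3, 413 and 301 counts, or 0, 0.0898, 14.1 and 8.43 CPM. It was at or below the floor in both soft libraries. Against the floor of 3 counts in soft it was at least 157-fold higher in stiff, and with A83-01 in both libraries it was 93.9-fold higher (31.8 to 458), where the lower level rests on 3 counts.

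Cdh3, known from basal epithelial cells and placenta, had 6, 0, 190 and 76 counts, or 0.180, 0, 6.50 and 2.13 CPM. Stiff was 36.1-fold above soft (16.3 to 99.7), and with A83-01 in both libraries stiff was at least 23.7-fold higher. Cdh6, a kidney and neural crest cadherin, had 5, 9, 34 and 69 counts, or 0.150, 0.269, 1.16 and 1.93 CPM. It was the weakest of the 4 genes found mainly on stiff matrix, 7.76-fold above soft (3.02 to 25.4) without and 7.17-fold (3.57 to 16.3) with the inhibitor.

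Ncam1 was present on both matrices, at 43.0, 19.3, 281 and 52.8 CPM. The untreated stiff library stood apart from the other 3. It was 6.52-fold above soft (6.16 to 6.90), while with A83-01 in both libraries stiff was 2.73-fold above soft (2.50 to 2.99). Cdh2 went the other way, at 120.0, 198, 54.9 and 69.2 CPM. Both stiff libraries lay below both soft ones, 2.19-fold lower (2.06 to 2.32) without and 2.86-fold lower (2.73 to 3.00) with the inhibitor.

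Without inhibitor, Cdh11 and Cdh13 differed less by matrix than the other compared members. Cdh11 stood at 112, 37.6, 185 and 40.9 CPM, 1.65-fold higher (1.58 to 1.72) in stiff without and 1.09-fold higher (1.01 to 1.18) with the inhibitor, so that its 2 inhibitor libraries lay close together. Cdh13 stood at 162, 171, 222 and 382 CPM, 1.38-fold higher (1.33 to 1.43) in stiff without and 2.24-fold higher (2.17 to 2.31) with the inhibitor. Stiff with A83-01 lay above its other 3 libraries.

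**Figure D2:**
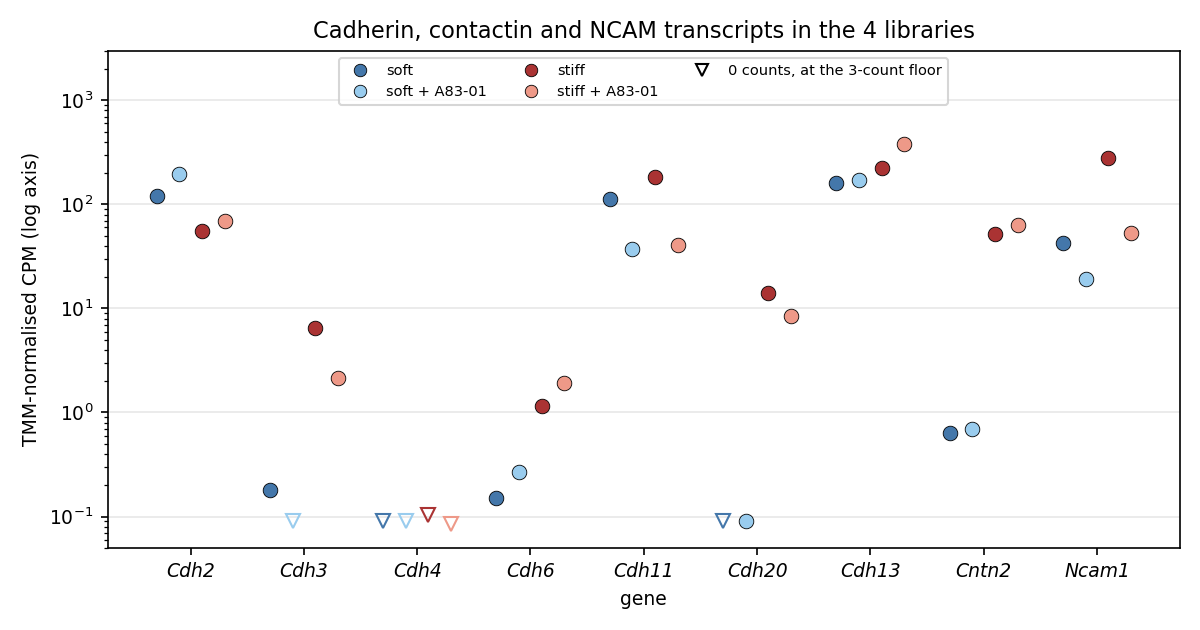
TMM-normalised CPM (logarithmic vertical axis) of the 9 genes in the 4 libraries, 1 point for each library. Open triangles mark 0 counts and are drawn at the floor of 3 counts. Cntn2, Cdh20, Cdh3, Cdh6, Ncam1 and Cdh13 lie higher in both stiff libraries, and Cdh2 lies lower there. Cdh11 and Ncam1 lie lower in the A83-01 library of each matrix.

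With A83-01 in both libraries, stiff exceeded soft at least 2-fold in 6 of the 8 compared genes and lay at least 2-fold below it in 1, beside 6.95% and 7.01% of all compared genes. The members were chosen with earlier results of these data known, so this pair is not shown to be independent of the choice. The caution on genes that pass the minimum only on stiff matrix applies to 4 of the 6. The other 2 were Ncam1 and Cdh13, and the lower gene was Cdh2.

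**Figure D3:**
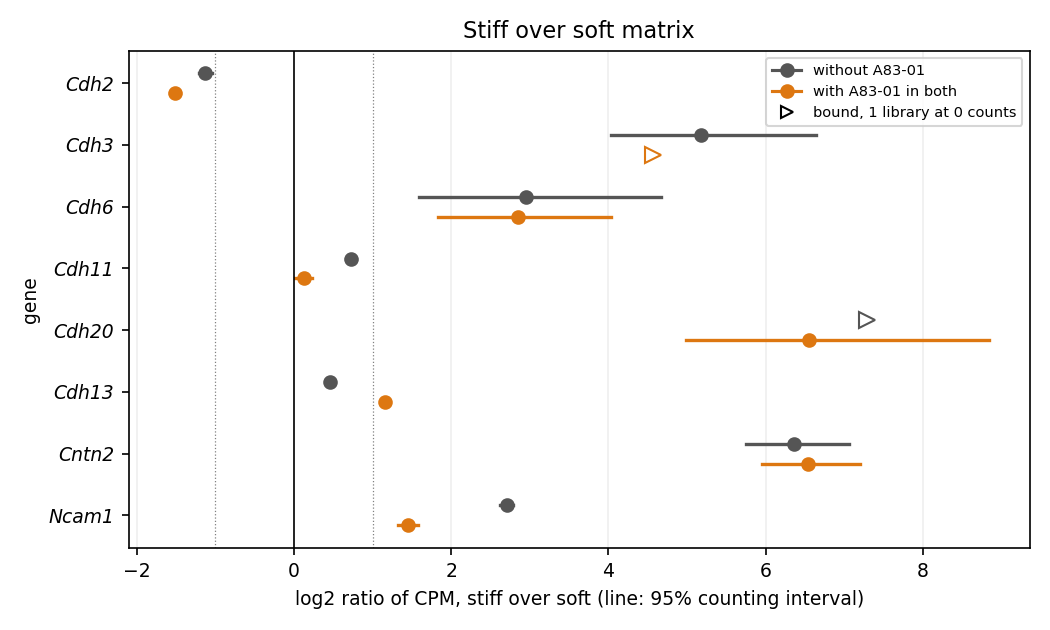
Log2 ratio of CPM, stiff over soft, for the 8 compared genes without A83-01 and with it in both libraries. Points are ratios, lines 95% counting intervals, open triangles lower bounds where the soft library had 0 counts, and dotted lines mark 2-fold. Cntn2 and Cdh20 lie farthest to the right in both comparisons, and Cdh2 lies left of the 2-fold line in both.

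A83-01 divided the genes differently. Cdh11 and Ncam1 were lower with the inhibitor on both matrices, and Cdh2 was higher on both. Cdh11 was 4.52-fold lower (4.26 to 4.79) with A83-01 on stiff and 2.98-fold lower (2.80 to 3.18) on soft. Ncam1 was 5.31-fold lower (5.05 to 5.59) on stiff and 2.23-fold lower (2.03 to 2.45) on soft. Cdh2 was 1.26-fold higher (1.18 to 1.34) on stiff and 1.65-fold higher (1.59 to 1.72) on soft.

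Cdh3 was 3.05-fold lower (2.33 to 4.04) with A83-01 on stiff, and on soft it had 6 counts without and 0 with the inhibitor, where the bound against the floor reached 2-fold by TMM and fell short of it by total counts. Cdh13 was 1.72-fold higher (1.67 to 1.77) on stiff and 1.06-fold higher (1.02 to 1.10) on soft. Cdh20 was 1.68-fold lower (1.44 to 1.95) on stiff, and Cdh6 1.66-fold higher (1.09 to 2.58). Cntn2 was 1.23-fold higher (1.16 to 1.32) on stiff, so the pair that led the matrix comparison differed in opposite directions here. On soft, Cntn2 and Cdh6 had too few counts to place, with intervals of 0.578 to 2.08 and 0.541 to 6.82 around equality, and no ratio is given for Cdh20, which had 3 counts or fewer in both. Cdh20, Cntn2, Cdh3, Ncam1 and Cdh6 were at least 2-fold higher than soft in the very stiff library that chose the set. The ratios on stiff matrix share that library, as do the response differences and the A83-01 test below.

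By the same 2-fold rule, 3 of the 8 compared genes (Cdh3, Cdh11 and Ncam1) were lower with A83-01 on stiff matrix and 0 higher, beside 4.58% and 7.99% of all compared genes. On soft matrix the lower genes were again Cdh3, Cdh11 and Ncam1, 3 of 8, with 0 higher, beside 2.57% and 2.33%. With total-count scaling or the deposited FPKM, Cdh6 and Cdh13 were also at least 2-fold higher on stiff matrix, which makes 2 higher and 3 lower. Of all compared genes, 12.5% were then higher and 2.99% lower by total counts, and 12.6% and 3% by FPKM. The log2 difference between both responses (stiff minus soft) was −1.26 for Ncam1 (−1.41 to −1.10), −0.60 for Cdh11 (−0.72 to −0.47), −0.39 for Cdh2 (−0.50 to −0.28) and 0.70 for Cdh13 (0.63 to 0.77). These intervals hold counting error alone, and with 1 library in each combination the difference between the responses was not tested.

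The inhibitor was tested over all 4 libraries, 2 with against 2 without, in a model that also holds the matrix, which leaves 1 residual degree of freedom. After Benjamini-Hochberg adjustment over all genes, the quasi-likelihood F-test of edgeR called 0 genes higher and 0 lower among all 13634, a background of 0% in each direction, and accordingly 0 of the 8. At unadjusted p of at most 0.05 it had 943 genes higher and 791 lower over the whole table, among them Cdh2 higher and Cdh3, Cdh11 and Ncam1 lower. The Cdh11 difference was −1.88 on the log2 scale (SE 0.192, adjusted p = 0.140 by edgeR's quasi-likelihood test), lower in 2 of 2 matrix pairs. Ncam1 differed by −1.79 (SE 0.337, adjusted p = 0.226 in edgeR's quasi-likelihood test) and Cdh2 by 0.53 (SE 0.154, adjusted p = 0.323 in the same edgeR test), each in 2 of 2 pairs. DESeq2's Wald test in the same model called Cdh11 (adjusted p = 4.44e-11) and Ncam1 (adjusted p = 2.48e-06), within 219 genes higher and 244 lower. limma-voom called 0 genes in either direction. A response that depends on the matrix counts as spread in this model, and the p-values reflect only how these libraries vary, which may be technical.

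**Figure D4:**
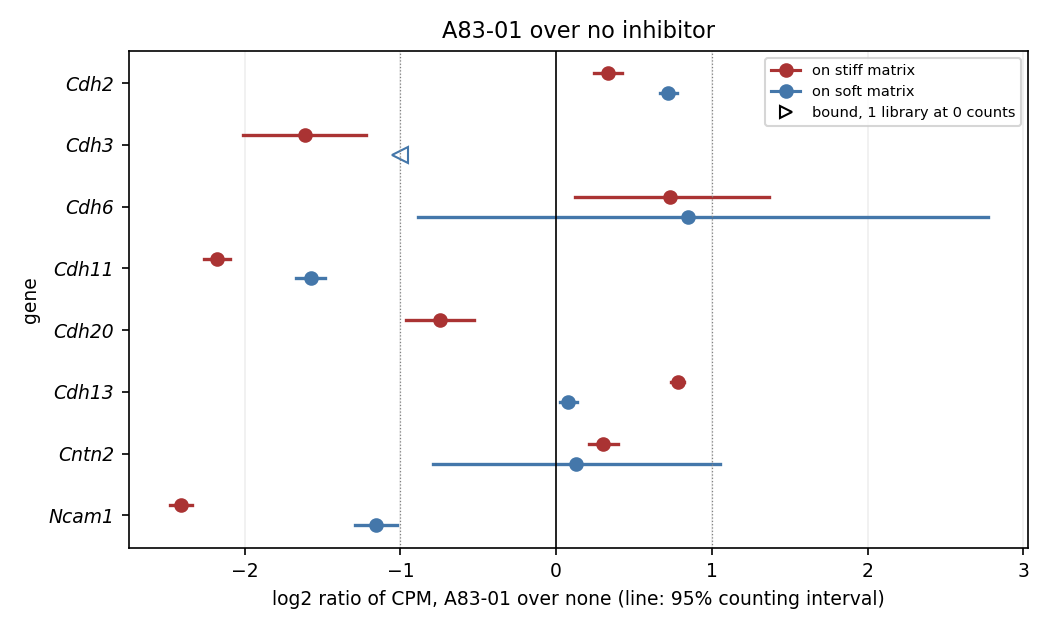
Log2 ratio of CPM, A83-01 over no inhibitor, on stiff and on soft matrix for the 8 compared genes. Points are ratios, lines 95% counting intervals, the open triangle a bound against 0 counts, and dotted lines mark 2-fold. Cdh20 on soft is left out, with 3 counts or fewer in both libraries. Cdh11 and Ncam1 lie left of the lower 2-fold line on both matrices.

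Which genes shared these patterns was asked by the distance between log2 CPM values, each centred on its mean over the 4 libraries. For Cntn2 the nearest 3 of the compared genes were Pmfbp1 (distance 0.724 on the log2 scale), the smooth muscle actin Actg2 (0.960) and the smooth muscle myosin heavy chain Myh11 (1.17). Actg2 stood at 9.99, 7.99, 637 and 385 CPM and Myh11 at 17.04, 17.7, 715 and 596 CPM. For Cdh20 the nearest were Cntn2 (1.23), Actg2 (1.56) and Pmfbp1 (1.76). Ncam1 lay nearest to Sh2d2a (0.270), Aspnl1 (0.328) and Cryba4 (0.382), and Cdh2 to Zcchc2 (0.0831), Baiap3 (0.0980) and Cxadr (0.116), the last an adhesion molecule of cell junctions. These distances rest on 4 values a gene and describe likeness only. They include the stiff and soft values that chose Cdh20 and Cntn2. For Cdh20 they also depend on the prior count, since its stiff over soft log2 ratio was 7.87 with a prior of 2 and 9.86 with 0.5.

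Markers of cells known for these adhesion molecules were summed in each library. Of 10 Schwann cell markers, all were in the table, and their sum was 121, 104, 221 and 162 CPM. Most of it was Pmp22 (98.0, 87.96, 201 and 131 CPM), and the defining factor Sox10 stood at 1.80, 0.988, 1.27 and 2.86 CPM. Sox10 was 1.42-fold lower in stiff than in soft, with a counting interval that includes equality (0.928 to 2.20), and 2.89-fold higher (1.94 to 4.42) with A83-01 in both libraries. Of the 9 Schwann cell markers compared, 1 was at least 2-fold higher and 1 lower in stiff than in soft, beside 5.29% and 9.01% of all compared genes. Under A83-01, 3 (Sox10, Erbb3 and Ngfr) were higher and 0 lower, with a median log2 ratio of 0.85, beside 6.95% and 7.01% of all compared genes. Ncam1, Cdh13, Cntn2, Cdh20, Cdh3 and Cdh6 were at least 2-fold higher in that pair too, and the part of Schwann cells was not tested. Neuronal markers (8) summed to 60.7, 57.2, 163 and 122 CPM, most of it Tubb3 (53.0, 46.1, 157 and 116 CPM), with Nefl and Elavl4 at 0 in every library. Of 8 keratinocyte and epithelial markers, 7, among them Cdh1, Epcam, Krt5 and Tp63, were at 0 in every library, and Krt8 stayed at or below 0.547 CPM. The part of epithelial cells in the Cdh3 differences was not tested. The 10 pericyte and smooth muscle markers summed to 2912, 2181, 7990 and 7477 CPM, with none at 0. Acta2 (272, 89.2, 3670 and 2425 CPM) gave most of the difference between stiff and soft without A83-01. In stiff against soft, 4 of the 10 were at least 2-fold higher and 0 lower, beside 5.29% and 9.01% of all compared genes. Under A83-01 the counts were 6 and 0, beside 6.95% and 7.01%. The summed level of these markers was higher in both stiff libraries, as were Cntn2, Cdh20, Cdh3, Cdh6, Ncam1 and Cdh13, while Cdh2 was lower in both. The part of pericytes and smooth muscle cells in those differences was not tested. The 9 endothelial markers in the table summed to 1683, 1716, 1300 and 2342 CPM, highest in stiff with A83-01, where Cdh13 was highest too. Cdh5 made up 1323 of the 2342 CPM. The markers were not of one pattern: Vwf was lowest there (126, 48.1, 31.0 and 18.6 CPM), and Kdr (211, 249, 105 and 157 CPM) lay below both soft libraries. The part of endothelial cells in the Cdh13 difference was not tested. The 8 fibroblast markers, none at 0, summed to 53573, 42141, 71768 and 25506 CPM, most of it Col1a1 (39405, 17631, 69097 and 19050 CPM). Col1a1 was lower with A83-01 on both matrices, as were Cdh11 and Ncam1, while Dcn (11565, 22023, 1434 and 5270 CPM), Dpt (56.7, 109, 34.9 and 96.4 CPM) and Col14a1 (138, 234, 71.4 and 125 CPM) were higher with it on both. With A83-01 on stiff, 2 of the 8 were at least 2-fold higher and 1 lower, with a median log2 ratio of 0.11. Of all compared genes, 7.99% were higher and 4.58% lower in that pair. The 5 melanocyte markers in the table, with Tyr at 0 throughout, summed to 30.0, 59.8, 10.1 and 34.3 CPM. Mitf (28.2, 53.8, 7.36 and 20.4 CPM) was highest and lowest in the same libraries as Cdh2, whereas Mlana (0.150, 4.76, 0.240 and 10.6 CPM) and Pmel (1.65, 1.20, 2.43 and 3.36 CPM) were highest in stiff with A83-01. Leukocyte markers (6) summed to 59.7, 93.2, 57.7 and 58.9 CPM, but in stiff against soft Lyz2 was higher (1.59, 1.02, 23.3 and 6.08 CPM) while Ptprc, Cd74 and Csf1r were lower. The part of these cells in the members' differences was not tested.

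Other cadherins were mostly below the expression minimum. Of 16 further classical and divergent cadherins, 3 reached the expression minimum (Cdh5, Cdh23 and Cdh24), and 7 had 0 counts in all libraries. Cdh5 was 1.20-fold lower (1.18 to 1.22) in stiff than in soft without inhibitor and 1.82-fold higher (1.79 to 1.85) with A83-01 on stiff. Cdh23, a cadherin of hair-cell tip links, was at least 2-fold lower in stiff than in soft and at least 2-fold higher with A83-01 on stiff, at levels between 0.513 and 1.86 CPM.

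The cytoplasmic partners of classical cadherins differed little. Of 13 catenins and junction linkers compared, 1 was at least 2-fold higher in stiff than in soft and 0 lower, beside 5.29% and 9.01% of all compared genes. Under A83-01 the same gene was higher and 0 were lower, beside 6.95% and 7.01%. That gene was vinculin, Vcl, which links junctions and focal adhesions to actin, 3.05-fold higher (2.95 to 3.16) without and 4.01-fold higher (3.88 to 4.15) with the inhibitor. The list's median log2 ratio was −0.03 without and 0.44 with the inhibitor, beside −0.01 and 0.00 for all compared genes. Beta-catenin, Ctnnb1, stayed between 418 and 497 CPM and p120-catenin, Ctnnd1, between 274 and 307 CPM. With A83-01 on stiff matrix, Arvcf, a catenin of the p120 family, was 2.12-fold higher (1.81 to 2.49).

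Among 14 protocadherins and giant cadherins compared, 0 were higher and 2 lower in stiff than in soft, beside 5.29% and 9.01% of all compared genes. Under A83-01, 3 were higher and 3 lower, beside 6.95% and 7.01%. Nothing is read from these counts. The 2 genes lower without inhibitor were Dchs1 (2.85-fold, 2.73 to 2.97) and Fat4 (2.31-fold, 2.15 to 2.48), which bind each other across cell contacts in planar polarity signalling. Dchs1 was also lower under A83-01 (2.13-fold, 2.04 to 2.22), and Fat4 was 1.94-fold lower there (1.83 to 2.06). Pcdh17 and Celsr2 had the largest other ratios, with log2 values of −1.52 and 1.32 under A83-01. Celsr2 reached the expression minimum only in stiff with A83-01. The list's median log2 ratios were −0.07 and −0.13.

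Of the neural immunoglobulin adhesion molecules, 10 of the 19 in the table were compared. In stiff against soft, 3 were at least 2-fold higher and 1 lower, beside 5.29% and 9.01% of all compared genes. Under A83-01, 4 were higher and 2 lower, beside 6.95% and 7.01%. The list's median log2 ratios were 0.42 and 0.67. Lsamp, the limbic system adhesion molecule, had 11, 6, 101 and 197 counts, and was 10.5-fold (5.61 to 21.7) and 30.7-fold (13.9 to 84.7) higher on stiff matrix without and with the inhibitor. Lsamp passed the expression minimum only through the stiff libraries, so it had to be higher there, though not necessarily by 2-fold. It is 1 of the genes counted as higher in each comparison. Its relative Ntm was 2.72-fold (2.11 to 3.52) and 7.22-fold (4.57 to 12.0) higher. Cadm1, a synaptic and epithelial adhesion molecule, was lower, 4.32-fold (3.47 to 5.42) and 4.77-fold (3.97 to 5.76). Cadm4, outside the rule for named genes and picked after its values were seen, went in the directions of Ncam1 in all 4 pairs, with 44.4, 21.3, 208 and 88.2 CPM. So did Ntm and Sdk2 of the same list, and Pkp1 and Adam12 of other lists.

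Contactins other than Cntn2 were scarce: of 7 contactins and contactin partners in the table, Cntn1 and Cntnap1 were compared and 3 had 0 counts throughout. Cntn1 stood at 2.10, 2.63, 1.30 and 2.47 CPM, lowest in stiff, where Cntn2 was 82.5-fold above soft. Cntnap1, a partner of contactins at myelinated axons, was at least 2-fold lower in stiff than in soft (log2 −1.07). The polysialyltransferase St8sia4, which adds polysialic acid to NCAM, stood at 9.90, 12.2, 6.40 and 10.7 CPM, lowest where Ncam1 was highest. St8sia2 was not analysed here.

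Desmosomal genes were low, with 3 of 10 compared. The desmosomal cadherin Dsc2 was 5.90-fold lower (3.11 to 12.3) in stiff than in soft, 6.55-fold higher (3.49 to 13.6) with A83-01 on stiff and 2.27-fold higher (1.71 to 3.02) on soft. The plaque genes Pkp1 and Dsp were lower with A83-01, 3.27-fold (2.72 to 3.94) and 2.16-fold (1.31 to 3.64) on stiff and 2.14-fold (1.69 to 2.73) and 5.76-fold (3.37 to 10.5) on soft. Of 9 proteases that shed cadherins or NCAM, 1 was at least 2-fold apart by matrix, the stromelysin Mmp3, 11.0-fold lower (9.46 to 13.0) in stiff than in soft and 29.5-fold lower (24.7 to 35.7) under A83-01. Of all compared genes, 9.01% were lower and 5.29% higher in stiff than in soft, and 7.01% and 6.95% under A83-01. Adam10, the main sheddase of N-cadherin, stayed between 61.5 and 99.98 CPM. Adam12 was lower with A83-01 on both matrices, 2.27-fold (2.21 to 2.33) on stiff and 2.05-fold (1.98 to 2.12) on soft.

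**Figure D5:**
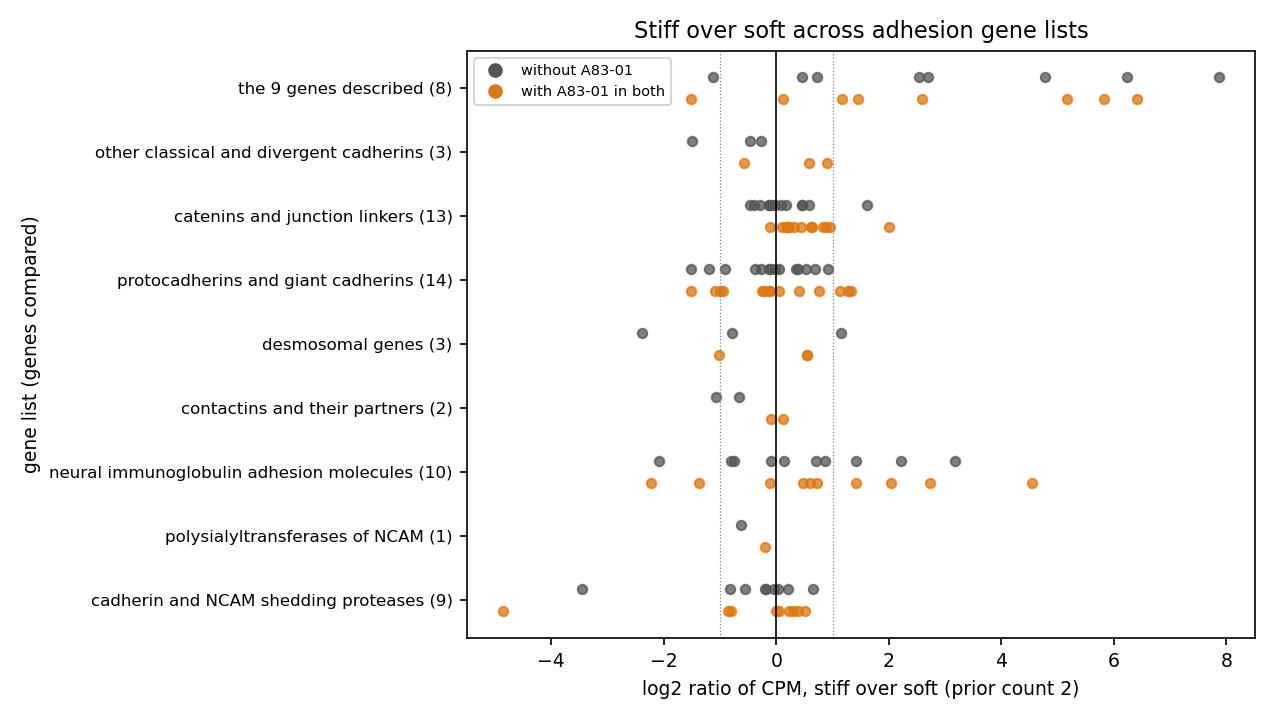
Log2 ratio of CPM, stiff over soft, of every compared gene in each adhesion list (1 point for each gene), without A83-01 and with it in both libraries. The number of compared genes stands in parentheses, and dotted lines mark 2-fold. Most catenins and junction linkers lie between the dotted lines, while the neural immunoglobulin molecules spread to both sides, with Lsamp farthest right among them.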

How the data were processed

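Polyadenylated RNA was sequenced in pairs on a DNBSEQ-T7 instrument, per the labels' protocols, with no molecular identifiers or strand marking mentioned, so overlapping genes may share reads. The authors deposited whole-number read counts per gene, and FPKM values, which the authors gave per transcript length and depth. Per the submitters' processing notes, the tools were HISAT2 and edgeR and the build Rnor_6.0. The counting program and gene models: not given in the sources used here.

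Calculations used R 4.3.3, edgeR 4.0.16, limma 3.58.1 and DESeq2 1.42.0. Genes with 1 TMM-normalised CPM or more in at least 1 library were compared (13634). Pair ratios are ratios of CPM with 95% conditional binomial (Clopper-Pearson) intervals. Against 0 counts, the bound uses a floor of 3 counts. A gene was at least 2-fold apart when its ratio or bound reached 2 and the interval excluded 1. Log2 ratios have a prior count of 2. The A83-01 test was edgeR's quasi-likelihood test, additive in matrix and inhibitor, with Benjamini-Hochberg adjustment at 0.05 over all genes. The code was run on simulated data with less dispersion than these libraries (common dispersion 0.035) and no matrix effect. That run therefore does not show how the test performs here. No library was left out. Named genes are the 9 members, up to 3 genes of each list with the largest ratio among those 2-fold apart, and the 3 nearest patterns of Cdh20, Cntn2, Ncam1 and Cdh2. Members and lists were chosen with earlier results of these data known, and the motifs after the levels were seen. Cdh5, Ctnnb1, Ctnnd1, Fat4, Cadm4, Sdk2, Cntn1, St8sia4 and Adam10 lie outside this rule and were named after their values were seen. Some genes of the lists are not reported here.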

Additional observations from a re-analysis of the deposited data

Results flagged for a closer look

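Among the adhesion genes named in the report, some had differences of opposite sign in the 2 settings of a contrast, with both counting intervals away from equality, and these are given by their log2 ratios. Over all 63 compared genes of the members and adhesion lists, 7 met this condition for A83-01 and 9 for the matrix. The share over all compared genes was not counted, so nothing is read from these counts. With 1 library in each combination none of these differences was tested. With A83-01 against none, Vcl had 0.32 on stiff and −0.077 on soft, Cntnap1 0.93 on stiff and −0.26 on soft, Ctnnb1 0.087 on stiff and −0.25 on soft, and Mmp3 −0.79 on stiff and 0.62 on soft. With stiff against soft, Arvcf had −0.28 without and 0.84 with A83-01, Cdh5 −0.27 and 0.57, and Ctnnb1 −0.13 and 0.21. None of the 9 genes described met this condition. For A83-01, some could not: Cdh4 had 0 counts, and the soft intervals of Cdh6, Cdh20 and Cntn2 include equality.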

How the results depend on the processing

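No ratio of the 8 compared genes in the 4 pairs changed sign under total-count scaling, DESeq2's size factors, TMM without a filter, a prior count of 0.5 or the deposited FPKM (156 values over 32 ratios). Of these values, 133 stayed within the counting interval and 23 did not, all 23 under total-count scaling or the deposited FPKM. For A83-01 on stiff matrix, 5 members were 2-fold apart in place of 3 with total-count scaling and 5 with the deposited FPKM. The other counts of members 2-fold apart stayed within 1.5 times. In the A83-01 test, the quasi-likelihood fit with total-count scaling called 3 members (Cdh2, Cdh11 and Ncam1), with 565 genes higher and 270 lower over the table, and DESeq2's Wald test called 2 members, with 219 higher and 244 lower. Without a filter on low counts, 1 gene was higher and 9 lower, none of them a member. The fits with DESeq2's size factors, without the matrix term and by limma-voom called 0. The DESeq2 estimate for Cdh20 had the opposite sign (1.03, against −0.50), and the cause was not tested. The A83-01 test pairs the libraries by matrix, no block by replicate number could be fitted because each group has 1 library, and leaving out a library left no residual degree of freedom. Low counts on soft matrix limit the inhibitor ratios of Cdh3, Cdh6, Cdh20 and Cntn2.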
